A study of Mus musculus with 1152 samples.

Results

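The lysosome is described here through 37 genes, listed by name, of the 48587 genes in the deposited table. They comprised 16 hydrolases (9 glycosidases, 4 lipid and amide hydrolases, 3 proteases other than cathepsins), 6 lysosomal membrane proteins, the regulator Tfeb, and 14 genes of the proton pump with its accessory proteins. All 37 had reads and all 37 passed the filter on low counts. They were followed in single microglia (the macrophages that reside in brain tissue), sorted with antibodies to CD11b, CD45, Ly6C, Ly6G and CD206 and profiled by Smart-seq2, which reads whole transcripts and adds no molecular identifiers. Both genotypes, wild type (WT) and 5xFAD, carry the strain label C57BL/6J, and each was sampled in cortex, hippocampus and cerebellum; ages were not given in the sources used here. 5xFAD mice are a transgenic model of amyloid deposition in which the neuronal Thy1 promoter drives the transgenes, so that these are meant to be expressed in neurons and not in the cells sequenced here.

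Lysosomes degrade material taken up by phagocytosis and endocytosis, and microglia, as phagocytes, depend on them to clear debris and protein aggregates. The V-ATPase, a proton pump built from a membrane sector (V0) and an ATP-hydrolysing sector (V1), acidifies the lumen in which the hydrolases work, and heavily glycosylated membrane proteins such as LAMP1 line it. Many of these genes carry an E-box element known as CLEAR in their promoters, through which TFEB, the transcription factor encoded by Tfeb, is known to drive lysosomal genes together.

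In WT mice 4 animals per region contributed 167 cortical, 182 hippocampal and 162 cerebellar cells that passed quality filters. The 5xFAD groups held 183 cortical cells (4 animals), 154 hippocampal cells (3 animals) and 193 cerebellar cells (3 animals). Reads were added up by animal and region into 22 sums, each of 35 to 72 cells with a total in genes between 5696201 and 26669220. Summed levels of 8 microglial markers were between 42492 and 64595 CPM (counts per 1e6 reads in genes) in every sum. CPM of members in sums are also scaled by TMM, while marker sums and thresholds applied to single cells are not. Wells with at least 3 markers of another cell type at 50 CPM or more numbered 36, of which 18 lay in 5xFAD cerebellum and 12 in WT cerebellum, mostly with markers of border macrophages. The same plate held WT cortex and hippocampus, another WT cerebellum and 5xFAD cortex, and the last 5xFAD hippocampus and cerebellum. Within any region the genotypes never shared a plate, so a difference between genotypes and one between plates cannot be told apart. In summed samples alone, fewer cells with a transcript and less transcript per cell cannot be told apart. Shares of hippocampal cells with a read, WT then 5xFAD, follow for the members that rose in hippocampus. Dpp7 had 20.9% and 49.4%, Atp6v1b2 41.2% and 60.4%, Gusb 74.7% and 83.8%, and Ppt1 74.7% and 81.8%. Hexa had 95.1% and 92.2%, Man2b1 93.4% and 92.9%, Cd68 92.9% and 92.2%, Lamp1 95.1% and 93.5%, and Lamp2 88.5% and 89.6%. Median reads per cell were 235875 in WT and 328896 in 5xFAD hippocampus, so these shares were not taken at equal depth.

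Promoters of 4 members (a membrane protein, a protease, a glycosidase and a pump subunit) are shown because they carry an E-box that 12 members have in common. RefSeq (GRCm38.p6) promoter windows, 250 bases before to 50 bases after a start site, were matched for 32 of the 37 members. The palindrome CACGTG, which reads the same on both strands, stood in the window of 12 of these 32 genes (37.5%), against 8.09% of 27025 genes with a window of the same length. In all 12 it was part of the longer TCACGTG (searched on both strands), which 4.29% of all genes hold. The 8-base TCACGTGA, which contains both shorter forms, was present in 6 of 32 members (18.8%) and in 1.12% of all genes. The full 10-base CLEAR palindrome was in 0 of 32 members and 0.37% of all genes. Of 2 motifs without an E-box, TGACTCA (searched on both strands) was in 3 of 32 members (9.38%) against 5.95% of all genes, and GAGGAAGT (both strands) in 2 of 32 (6.25%) against 3.69%. The following 150 bases upstream of the start sites end where the nearest annotated exon begins. Capitals mark each CACGTG with the adjoining bases that match the CLEAR palindrome.
Lamp1, chr8:13159011-13159160, plus strand: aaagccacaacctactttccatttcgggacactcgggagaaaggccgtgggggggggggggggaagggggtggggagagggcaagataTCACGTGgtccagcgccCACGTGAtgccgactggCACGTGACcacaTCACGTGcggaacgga
Dpp7, chr2:25356360-25356509, minus strand: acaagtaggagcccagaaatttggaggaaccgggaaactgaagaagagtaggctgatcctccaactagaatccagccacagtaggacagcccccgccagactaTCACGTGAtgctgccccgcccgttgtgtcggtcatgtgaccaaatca
Glb1, chr9:114400926-114401075, plus strand: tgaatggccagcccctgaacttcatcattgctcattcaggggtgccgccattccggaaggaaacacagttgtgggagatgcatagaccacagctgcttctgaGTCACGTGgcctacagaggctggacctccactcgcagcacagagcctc
Atp6v0b, chr4:117887334-117887483, minus strand: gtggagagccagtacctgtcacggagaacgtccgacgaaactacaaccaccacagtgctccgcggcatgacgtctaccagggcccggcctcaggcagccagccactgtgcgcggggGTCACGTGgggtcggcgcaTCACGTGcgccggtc

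Lamp1 held 4 E-boxes in this stretch, 61 to 15 bases before its start site, where the other three held 1 or 2. By role, the element was found in 6 of 15 hydrolase genes, 4 of 10 pump genes and 2 of the 7 membrane protein and regulator genes with a window. Dpp7, Gla, Mcoln1, Atp6v0d1, Atp6v0e and Atp6v1a had the 8-base form. A match is a description of these letters and not evidence of binding, and Hexa, Gusb and Cd68, whose counts are followed below, were not among the 12 genes.

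**Figure D1:**
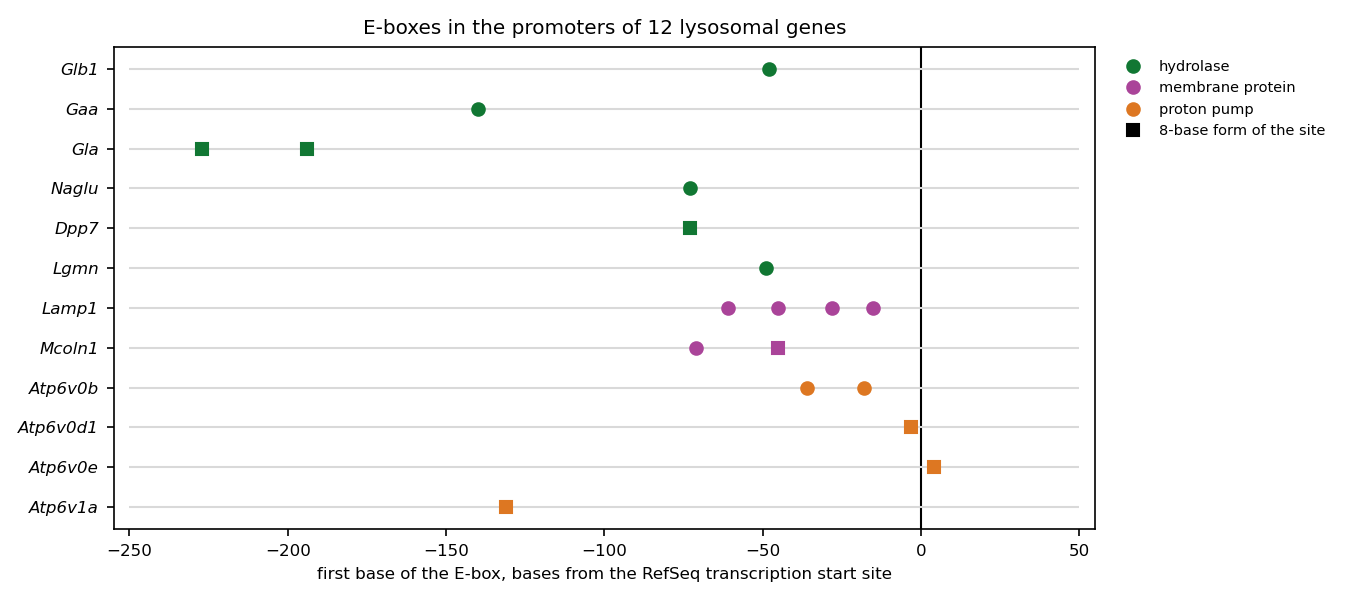
Position of each CACGTG in the RefSeq promoters of the 12 members that hold one. The horizontal axis gives bases from the transcription start site (vertical line at 0), colours give the role, and squares mark the 8-base form. Lamp1 has the most sites, 4, all before the start.

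Per kilobase of exon, the most abundant member in every group was Lgmn, which encodes the asparaginyl protease legumain, at 2760 CPM per kb in 5xFAD hippocampus to 3233 in WT hippocampus. In WT hippocampus it was followed by Laptm5, a lysosomal transmembrane protein of haematopoietic cells, at 1227 CPM per kb, then Hexa at 870, Cd68 at 806 and Lamp1 at 609. The accessory gene Atp6ap1 (250 CPM per kb) and the V0 gene Atp6v0b (211.3) led the pump genes there. Tfeb (3.01 CPM per kb) and Gla (0.442) were the lowest members in that group. Together the 37 genes took 2.48% to 3.35% of the reads in genes of a sum. Gla, which encodes alpha-galactosidase A, had 0 reads in 3 of 4 WT hippocampus sums and 3 of 4 WT cerebellum sums, and its fold changes depend on those zeros.

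Between genotypes, 5 of 16 hydrolases were higher in 5xFAD than in WT microglia of hippocampus and 4 of 16 in cortex. In cerebellum 0 of 16 passed, and no hydrolase fell in any region in this fit. Hexa, Gusb, Man2b1 and Dpp7 rose in both forebrain regions, and Ppt1 in hippocampus. Fold changes below are log2 values of 5xFAD over WT with their standard error (SE), and a gene is said to rise or fall where its adjusted p over all 17358 genes tested is under 0.05 (edgeR). Over all 37 members, 5 rose in cortex (13.5%) where 0.242% of all genes did, 9 in hippocampus (24.3%) where 0.76% did, and 0 in cerebellum where 0.0288% did. Among the 4668 genes with a mean log2 CPM of 5 or more, a class that holds 34 members, the background shares that rose were 0.75% in cortex, 2.31% in hippocampus and 0.0643% in cerebellum. All 5xFAD mice lay above all WT mice for 9 members in cortex (3.06% of all genes), 15 in hippocampus (7.21%) and 8 in cerebellum (4.6%). No member fell in any region in this fit, where 0.0518%, 0.253% and 0.0173% of all genes fell. Of the genes that passed in hippocampus 132 were higher and 44 lower, a split that became 104 and 95 with scaling by library size alone, which moved the median of all genes there from 0.10 to -0.04; in cerebellum 5 and 3 became 3 and 6. The summed level of the 8 microglial markers differed in hippocampus, with 59313 to 64595 CPM in WT mice and 44070 to 47809 CPM in 5xFAD mice. In cortex it was 56684 to 61059 CPM in WT and 53278 to 54659 CPM in 5xFAD mice. These sums are not scaled by TMM, whose factors were 1.00 to 1.04 in WT and 0.902 to 0.924 in 5xFAD hippocampus. The TMM scale would thus narrow the gap in hippocampus. The part of the markers in the results was not tested. The median member differed by 0.31, 0.56 and 0.25 in cortex, hippocampus and cerebellum, against -0.09, 0.10 and -0.01 for the median of all genes.

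Hexa (chromosome 9, 59539540 to 59565109) encodes the alpha subunit of beta-hexosaminidase, which degrades GM2 ganglioside. It stood at 1829, 1501, 1876 and 1743 CPM in the 4 WT hippocampus mice and at 4004, 3250 and 3839 CPM in the 3 5xFAD mice. In cortex the WT mice had 2090, 1772, 1663 and 1937 CPM and the 5xFAD mice 3057, 2958, 2850 and 2514. Neither pair of groups overlapped. The differences were 1.09 ± 0.13 in hippocampus (adjusted p = 2.52e-05) and 0.61 ± 0.12 in cortex (adjusted p = 0.0223). In cerebellum, 1652, 1884, 1514 and 1793 CPM in WT mice stood beside 2623, 1768 and 1847 CPM in 5xFAD mice, of which only mouse 1 lay above all WT mice, and the difference was 0.28 ± 0.13 (adjusted p = 0.552). The cortex call was lost without 5xFAD cortex mouse 1, 2 or 3 or WT cortex mouse 2, 3 or 4. It was also lost under 5 of 12 alternatives, which were both other scalings, only the groups compared, the columns as deposited and thinned cells (adjusted p = 0.0506 to 0.0700). Exons of Tmem202 on the other strand overlap 12.8% of the exons of Hexa, and whether strand was used in counting is not given in the sources used here.

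Gusb (chromosome 5, 129989011 to 130003049), the beta-glucuronidase that acts on glycosaminoglycans, had the largest fold change among the glycosidases that passed. WT cortex mice had 198, 298, 257 and 291 CPM, and 5xFAD cortex mice 689, 767, 639 and 511. WT hippocampus mice had 302, 266, 259 and 244 CPM, and 5xFAD hippocampus mice 554, 667 and 812. Every 5xFAD mouse of these regions lay above every WT mouse, with differences of 1.32 ± 0.19 in cortex (adjusted p = 0.000714) and 1.34 ± 0.20 in hippocampus (adjusted p = 0.000361). In cerebellum the WT mice, at 415, 443, 369 and 328 CPM, overlapped the 5xFAD mice at 625, 409 and 376 CPM (0.27 ± 0.20, adjusted p = 0.745).

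Man2b1 (chromosome 8, 85083270 to 85098282) encodes the lysosomal alpha-mannosidase that trims glycoprotein sugars. Its levels were 1907, 1479, 1570 and 1930 CPM in WT hippocampus and 2503, 2771 and 2652 CPM in 5xFAD hippocampus. In cortex they were 1527, 1785, 1719 and 1724 CPM in WT and 2218, 2906, 2542 and 2147 CPM in 5xFAD. The groups were separate in both regions, with rises of 0.62 ± 0.12 (adjusted p = 0.00647) and 0.54 ± 0.11 (adjusted p = 0.029). The cortex call was lost without 5xFAD cortex mouse 2 or 3 or any 1 of the 4 WT cortex mice, and under 6 of 12 alternatives (both other scalings, the replicate block, only the groups compared, the columns as deposited, and without plate columns 1 and 2). With the replicate number as a block the adjusted p was 0.0685 in hippocampus, where that call was lost too, and 0.0798 in cortex. In cerebellum 1600, 1648, 1443 and 1743 CPM in WT and 2530, 2061 and 2075 CPM in 5xFAD did not overlap either, and the difference of 0.47 ± 0.12 had an adjusted p of 0.319.

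Dpp7 (chromosome 2, 25352276 to 25356359), a dipeptidyl peptidase, had the largest fold change among the members that passed. WT hippocampus mice had 75.6, 105, 110 and 65.7 CPM and 5xFAD hippocampus mice 400, 228 and 352, a rise of 1.88 ± 0.31 (adjusted p = 0.00155). WT cortex mice had 85, 73.5, 45.1 and 70.5 CPM and 5xFAD cortex mice 213, 139, 195 and 208, a rise of 1.46 ± 0.29 (adjusted p = 0.0271). The cortex call was lost without 5xFAD cortex mouse 1, 3 or 4 or WT cortex mouse 2, 3 or 4, and with only the groups compared. Without the cells of plate columns 1 and 2 neither call held, with an adjusted p of 0.148 in both regions. In cerebellum the WT mice, at 103, 215, 186 and 180 CPM, overlapped the 304, 142 and 149 CPM of 5xFAD mice (0.22 ± 0.31, adjusted p = 0.953). Ppt1 (chromosome 4, 122836242 to 122859175), the palmitoyl-protein thioesterase that removes fatty acids from proteins, rose in hippocampus by 0.94 ± 0.17 (adjusted p = 0.00426). It went there from 773, 487, 559 and 652 CPM in WT mice to 1227, 1021 and 1315 CPM in 5xFAD mice, with no overlap. In cortex, 749, 863, 675 and 681 CPM in WT mice overlapped 1081, 902, 814 and 857 CPM in 5xFAD mice (0.30 ± 0.16, adjusted p = 0.475). In cerebellum, 779, 748, 873 and 669 CPM in WT mice overlapped 1133, 1041 and 690 CPM in 5xFAD mice (0.32 ± 0.17, adjusted p = 0.575).

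Lgmn (chromosome 12, 102394084 to 102439813), chosen for description after its values were seen, was the hydrolase that did not share the direction of the others in hippocampus. WT hippocampus mice had 7836, 7326, 7184 and 7693 CPM, and 5xFAD hippocampus mice had 5866, 6522 and 6848. The 5xFAD mice lay below all WT mice, yet the difference of -0.23 ± 0.07 did not pass (adjusted p = 0.177). Lgmn was the 1 member whose 5xFAD hippocampus mice all lay below the WT mice, an order that 3.8% of all genes showed. With scaling by library size alone it fell by 0.39 (adjusted p = 0.00342), and over the other alternatives its adjusted p was between 0.118 and 0.421. In cortex, 6765, 7535, 6640 and 7241 CPM in WT mice overlapped 6928, 7387, 8012 and 7058 CPM in 5xFAD mice (0.06 ± 0.06, adjusted p = 0.836). In cerebellum, 6510, 6785, 6066 and 6471 CPM in WT mice overlapped 7144, 6705 and 7548 CPM in 5xFAD mice (0.14 ± 0.07, adjusted p = 0.556).

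The remaining 10 hydrolases passed in no region. The mannosidase gene Man2b2 differed by 0.73 ± 0.18 in cortex, 0.64 ± 0.19 in hippocampus and 0.66 ± 0.19 in cerebellum (adjusted p = 0.0974, 0.162 and 0.466). Naglu, which removes N-acetylglucosamine from heparan sulfate, differed by 0.95 ± 0.25, 1.06 ± 0.27 and 0.52 ± 0.27 (adjusted p = 0.161, 0.0639 and 0.556). Gaa, the acid alpha-glucosidase that degrades glycogen, differed by 0.70 ± 0.21, 0.85 ± 0.23 and 0.28 ± 0.23 (adjusted p = 0.282, 0.0876 and 0.809). Asah1, the acid ceramidase, had its largest value in cerebellum, at 0.56 ± 0.13 (adjusted p = 0.212). The sialidase gene Neu1 differed by 0.14 ± 0.37 to 0.25 ± 0.40 over the regions, too wide an error to tell it from no difference. The other five, Glb1, Lipa, Naaa, Tpp1 and Gla, had positive values in each region. Across all 16 hydrolases the difference was positive for 16 in cortex, 15 in hippocampus and 16 in cerebellum, with medians of 0.65, 0.77 and 0.30. The share of all genes with a positive difference is not given, so these counts by sign have no background here.

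**Figure D2:**
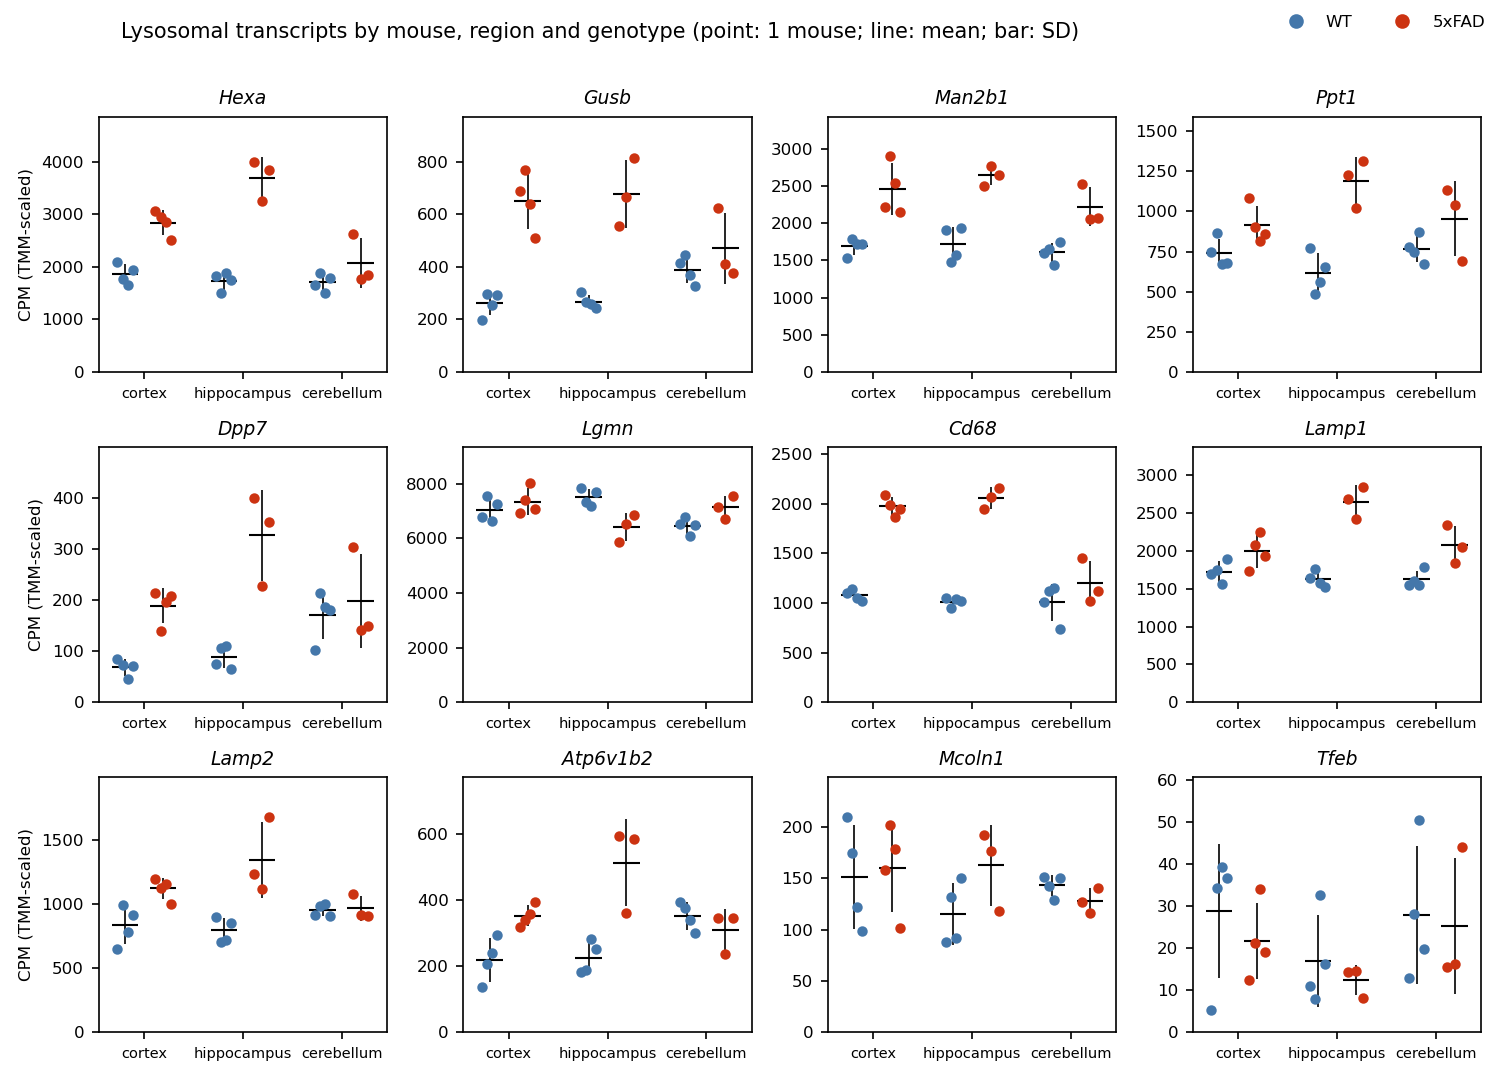
Levels of 12 members in CPM (vertical axes, linear, from 0) by region and genotype; each point is 1 mouse, horizontal lines are means and vertical bars SD. Hexa, Gusb, Man2b1, Dpp7 and Cd68 of 5xFAD mice (red) lie above those of WT mice (blue) in cortex and hippocampus, while Lgmn of 5xFAD hippocampus lies below.

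Among the 6 membrane proteins, 3 rose in hippocampus, 1 rose in cortex and 0 passed in cerebellum. Cd68, Lamp1 and Lamp2 rose in hippocampus, and Cd68 in cortex. Cd68 (chromosome 11, 69664213 to 69666153) encodes a LAMP-like glycoprotein used as a marker of phagocytes. Its levels were 1104, 1140, 1049 and 1022 CPM in WT cortex and 2087, 1990, 1865 and 1949 CPM in 5xFAD cortex. In hippocampus they were 1045, 944, 1042 and 1022 CPM in WT and 1947, 2061 and 2160 CPM in 5xFAD. These groups lay far apart relative to their spread, with rises of 0.87 ± 0.12 (adjusted p = 0.000714) and 1.02 ± 0.13 (adjusted p = 7.61e-05). In cerebellum 1008, 1120, 1151 and 741 CPM in WT overlapped 1453, 1022 and 1116 CPM in 5xFAD (0.25 ± 0.13, adjusted p = 0.557).

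Lamp1 (chromosome 8, 13159161 to 13175338), a major glycoprotein of the lysosomal membrane, had 1649, 1763, 1580 and 1525 CPM in WT hippocampus and 2684, 2423 and 2849 CPM in 5xFAD hippocampus. The groups did not overlap and the rise was 0.70 ± 0.10 (adjusted p = 0.000451). In cortex, 1697, 1750, 1568 and 1899 CPM in WT overlapped 1733, 2086, 2247 and 1934 CPM in 5xFAD (0.21 ± 0.10, adjusted p = 0.411). In cerebellum, 1555, 1609, 1555 and 1792 CPM in WT lay below 2340, 1844 and 2057 CPM in 5xFAD, and the difference of 0.35 ± 0.11 did not pass (adjusted p = 0.468). Exons of Grtp1 on the other strand overlap 9.31% of its exons.

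Lamp2 (chromosome X, 38401357 to 38456454), its relative that also serves chaperone-mediated autophagy, had 899, 709, 720 and 856 CPM in WT hippocampus and 1236, 1120 and 1680 CPM in 5xFAD hippocampus, a rise of 0.76 ± 0.15 (adjusted p = 0.00823) without overlap. This call was lost without 5xFAD hippocampus mouse 3, with the replicate number as a block (adjusted p = 0.0963), with only the groups compared (0.0778) and without plate columns 1 and 2 (0.0924). In cortex, 654, 992, 781 and 920 CPM in WT lay just below 1197, 1128, 1162 and 1005 CPM in 5xFAD (0.42 ± 0.14, adjusted p = 0.349). In cerebellum, 913, 988, 1003 and 910 CPM in WT overlapped 1079, 918 and 906 CPM in 5xFAD, and the difference was 0.02 ± 0.15. Scarb2, the receptor that carries glucocerebrosidase to lysosomes, differed by 0.31 ± 0.25, 0.56 ± 0.27 and 0.67 ± 0.27 in the 3 regions without passing. Laptm5, abundant in all groups, differed by 0.10 ± 0.08, 0.05 ± 0.09 and -0.14 ± 0.09.

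Mcoln1 (chromosome 8, 3500457 to 3515232), the calcium-releasing channel of the lysosomal membrane, showed no separation of the genotypes. It stood at 210, 175, 122 and 99.0 CPM in WT cortex and 158, 201, 178 and 102 CPM in 5xFAD cortex. In hippocampus it stood at 87.9, 132, 92.4 and 150 CPM in WT and 192, 177 and 118 CPM in 5xFAD, and in cerebellum at 151, 142, 129 and 150 CPM in WT and 127, 116 and 141 CPM in 5xFAD. All 3 pairs of groups overlapped, with differences of 0.08 ± 0.26, 0.49 ± 0.28 and -0.16 ± 0.28. Tfeb (chromosome 17, 47737030 to 47792419) was scarce. Its levels were 5.34, 34.3, 39.5 and 36.7 CPM in WT cortex, 12.6, 21.3, 34.1 and 19.2 CPM in 5xFAD cortex, 11.1, 8.07, 32.8 and 16.2 CPM in WT hippocampus and 14.5, 14.7 and 8.27 CPM in 5xFAD hippocampus. In cerebellum they were 12.9, 28.3, 50.6 and 19.9 CPM in WT and 15.6, 16.3 and 44.1 CPM in 5xFAD. With this spread, differences of -0.41 ± 0.64, -0.45 ± 0.70 and -0.14 ± 0.69 were not detectable.

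Of the 14 pump genes, 1 rose in hippocampus and 0 passed in cortex or cerebellum. The gene that rose was Atp6v1b2 (chromosome 8, 69088646 to 69113711), which encodes the nucleotide-binding B subunit of V1. It went from 181, 188, 282 and 252 CPM in WT hippocampus to 594, 360 and 582 CPM in 5xFAD hippocampus, without overlap and by 1.18 ± 0.24 (adjusted p = 0.00942). The call was lost when only the groups compared were fitted, when wells with markers of other cell types were left out, and without 5xFAD hippocampus mouse 1 or mouse 3. In cortex, 136, 208, 240 and 294 CPM in WT lay below 318, 340, 356 and 393 CPM in 5xFAD, and the difference of 0.68 ± 0.22 did not pass (adjusted p = 0.342). In cerebellum, 394, 376, 340 and 299 CPM in WT overlapped 346, 237 and 344 CPM in 5xFAD (-0.19 ± 0.24).

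The other 13 pump genes passed in no region. Atp6ap1, an accessory protein of the V0 sector, differed by 0.30 ± 0.17, 0.69 ± 0.19 and 0.37 ± 0.19 in cortex, hippocampus and cerebellum, with an adjusted p of 0.0891 in hippocampus. The other accessory gene, Atp6ap2, differed by -0.12 ± 0.15, 0.24 ± 0.17 and 0.48 ± 0.17. Atp6v1a, the catalytic subunit of V1, differed by 0.34 ± 0.58, 0.42 ± 0.62 and 1.49 ± 0.62, and Atp6v0b, a proteolipid of the V0 ring, by -0.03 ± 0.18, 0.09 ± 0.19 and -0.41 ± 0.19. Reads of Atp6v0c, the main V0 proteolipid, may be shared with its pseudogenes Atp6v0c-ps1 and Atp6v0c-ps2, and its 0.82 ± 0.48 in hippocampus is uncertain. Over all 14 genes the difference was positive for 8 in cortex, 12 in hippocampus and 8 in cerebellum, with medians of 0.10, 0.44 and 0.07. These counts by sign, too, come without the share of all genes.

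**Figure D3:**
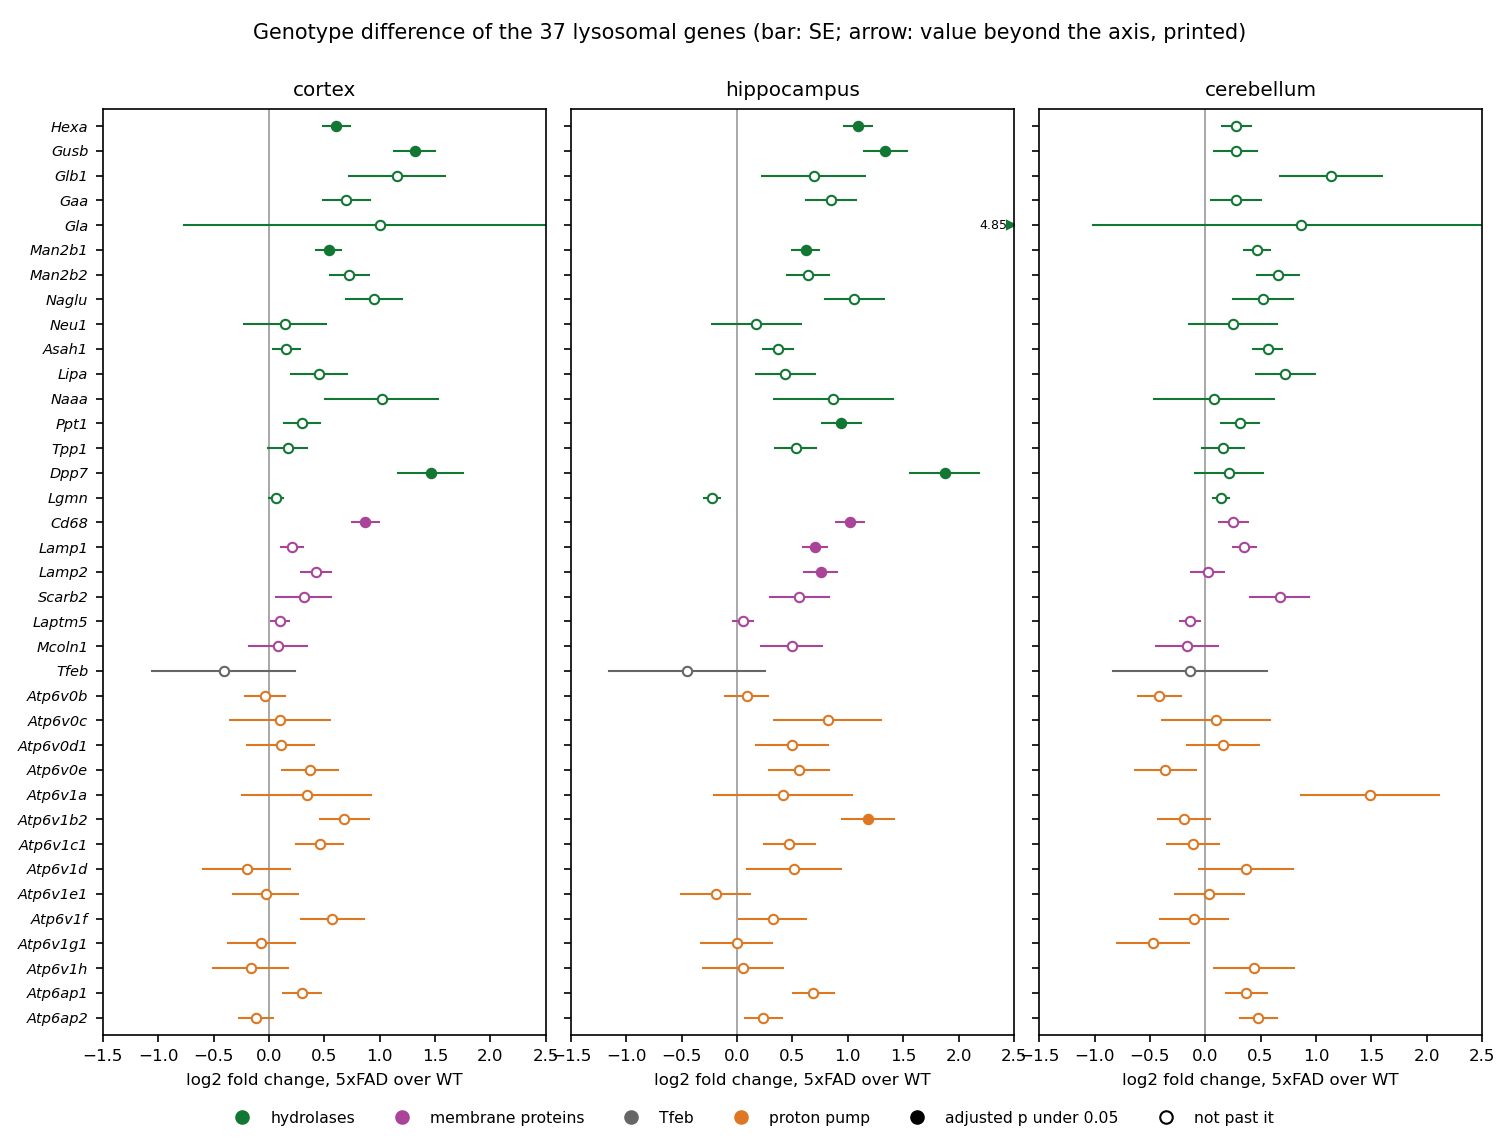
Log2 fold changes of 5xFAD over WT (horizontal axis) for the 37 members in 3 regions; bars are SE, filled circles have an adjusted p under 0.05 and open circles do not, colours give the role, and the arrow marks Gla in hippocampus, beyond the axis. Filled circles are found among hydrolases and membrane proteins of cortex and hippocampus and for 1 pump gene, Atp6v1b2.

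The hydrolases were then set against the pump within each mouse, as the mean log2 CPM of 16 hydrolases minus the mean log2 CPM of 14 pump genes. This difference is a description, without a test. In cortex it was 1.23, 0.86, 0.85 and 1.18 in WT mice and 1.72, 1.63, 1.48 and 1.44 in 5xFAD mice. In hippocampus it was 1.23, 0.80, 0.87 and 0.90 in WT mice and 1.55, 1.68 and 1.71 in 5xFAD mice. The 5xFAD mice of both regions lay above all WT mice, and the group means differed by 0.54 in cortex and 0.69 in hippocampus. In cerebellum, 0.83, 1.62, 1.07 and 1.25 in WT mice overlapped 1.92, 1.68 and 1.47 in 5xFAD mice, with means 0.49 apart. In hippocampus the mean hydrolase level was 1.09 higher and the mean pump level 0.39 higher in 5xFAD than in WT mice, each without overlap of the mice. In cortex these differences were 0.73 and 0.20, also without overlap. In cerebellum the mean hydrolase level was 0.71 higher without overlap, and the mean pump level was 0.21 higher with overlap. These hydrolase means include Gla, which had 0 reads in 3 of 4 WT hippocampus sums and 3 of 4 WT cerebellum sums. Those zeros lower the WT means, and the hydrolase gaps and their overlap were not taken without Gla.

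That order depends on how genes are weighted. Without the scarce Gla, an alternative chosen after seeing the data, the difference was 0.47 in cortex, 0.37 in hippocampus and 0.22 in cerebellum. Taken as the log2 ratio of summed hydrolase reads to summed pump reads, it was -0.11 in hippocampus, where WT mice had 2.36, 2.34, 2.41 and 2.53 and 5xFAD mice 2.23, 2.37 and 2.31, and 0.14 in cortex. Lgmn carries much of those reads. It made up 50.2%, 53.5%, 49.7% and 50.9% of hydrolase reads in the WT hippocampus mice and 31.3%, 35.6% and 34.1% in the 5xFAD hippocampus mice. In cortex the share was 48.2% to 50.8% in WT mice and 39.0% to 43.1% in 5xFAD mice, and in cerebellum 46.5% to 48.2% and 39.3% to 47.3%. Without Lgmn, also chosen after seeing the data, the summed reads gave 0.33 in hippocampus, 0.36 in cortex and 0.25 in cerebellum.

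**Figure D4:**
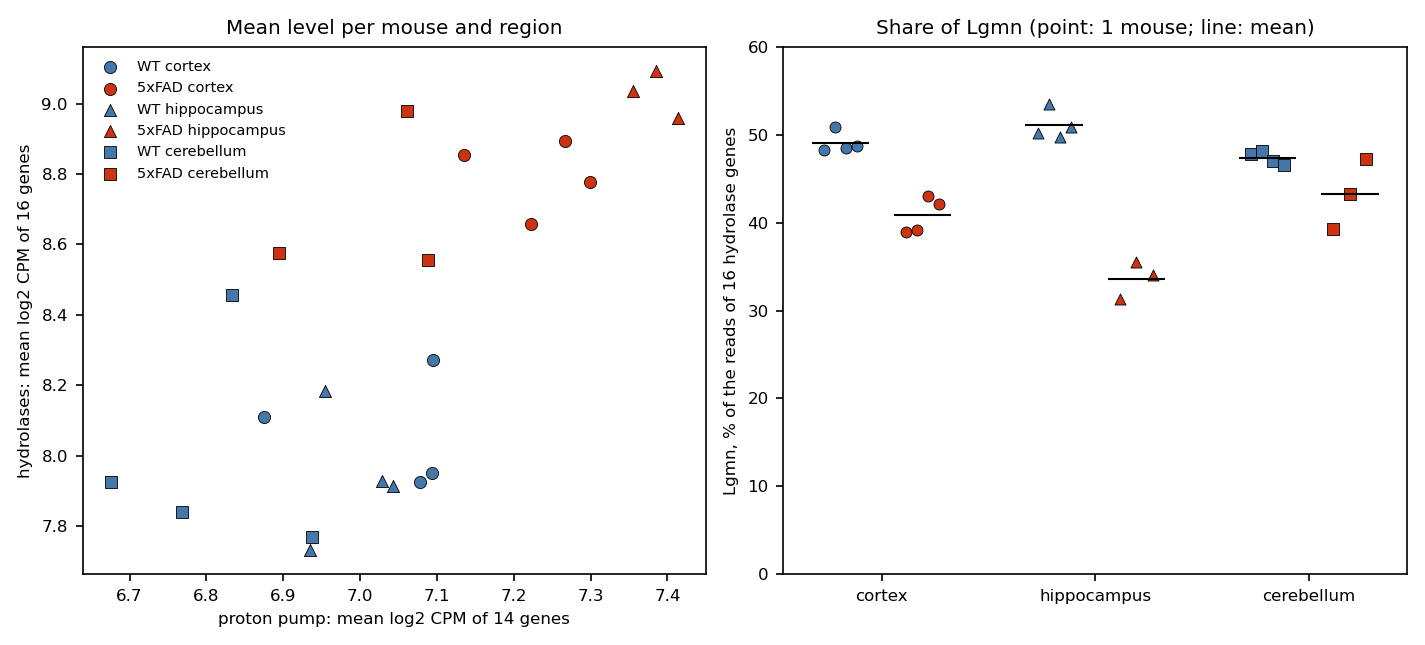
Left, mean log2 CPM of 16 hydrolases (vertical) against that of 14 proton pump genes (horizontal), with 1 point per mouse and region; colours give genotype and shapes the region. Right, share of Lgmn in the reads of the 16 hydrolases in percent, from 0; lines are means. Points of 5xFAD mice lie higher on the left, and the share of Lgmn is lowest in 5xFAD hippocampus.

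Regions were compared within a genotype. In WT mice 0 of 37 members passed in hippocampus against cortex, cerebellum against cortex or hippocampus against cerebellum, where 0%, 0.15% and 0.184% of all genes were higher and 0%, 0.127% and 0.19% lower. At an unadjusted p under 0.05 the counts of members were 0, 7 and 10, and DESeq2 called 0, 2 and 2. The shares of all genes above belong to the edgeR call at an adjusted p, so these counts have no background here. Dpp7 was nearest to the threshold in cerebellum against cortex (1.32 ± 0.29, adjusted p = 0.0613), and Man2b2 in hippocampus against cerebellum (0.79 ± 0.18, adjusted p = 0.0519). In WT cerebellum the summed level of 7 border macrophage markers was 8.24 to 668 CPM, and in WT hippocampus it was 0 to 323 CPM; the part of these cells in the values was not tested.

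In 5xFAD mice hippocampus and cerebellum were sequenced on the same plate. Hexa was 0.83 ± 0.14 higher in hippocampus (adjusted p = 0.00577) and Cd68 0.78 ± 0.14 higher (adjusted p = 0.0132), and 0 members were lower, where 0.207% of all genes were higher and 0.0115% lower. The values above show no overlap for Hexa (3250 to 4004 CPM against 1768 to 2623 CPM) or Cd68 (1947 to 2160 CPM against 1022 to 1453 CPM). Such separation was not particular to them, as 13 of 37 members lay higher and 2 lower in hippocampus without overlap. The share of all genes without overlap is not given for this comparison. Without 5xFAD cerebellum mouse 2 or mouse 3, with only the groups compared or with the columns as deposited, 0 members passed, and without any 1 of the hippocampus mice 1 did. Border macrophage markers summed to 268 to 543 CPM in 5xFAD cerebellum and 3.56 to 7.12 CPM in 5xFAD hippocampus, and neutrophil markers reached 7455 CPM in cerebellum mouse 3. Without wells that held markers of other types, both genes still passed, at 0.79 for Hexa and 0.72 for Cd68. Cerebellum against cortex shares the cerebellum mice with this comparison and lay across plates: Cd68 was 0.72 ± 0.13 lower in cerebellum (adjusted p = 0.0388), where 0.0518% of all genes were lower, and the call was lost in most alternatives. In 5xFAD hippocampus against cortex 0 members passed, where 0.0288% of all genes were higher and 0.00576% lower. There 7 members had an unadjusted p under 0.05 and DESeq2 called 1, counts given without a background share.

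Whether the genotype difference itself differs between regions was tested as an interaction. In this test 0 members passed for hippocampus minus cortex, hippocampus minus cerebellum and cortex minus cerebellum, where 0.0403%, 0.248% and 0.0576% of all genes were higher and 0.00576%, 0.0518% and 0.023% lower. At an unadjusted p under 0.05 there were 4, 10 and 6 members, and DESeq2 called 1, 6 and 1. These counts come without the shares of all genes under the same rules. The nearest were Hexa (0.81 ± 0.18, adjusted p = 0.0645), Cd68 (0.77 ± 0.19, adjusted p = 0.0887) and Atp6v1b2 (1.37 ± 0.34, adjusted p = 0.0972), each for hippocampus minus cerebellum. In this fit the larger number of members that rose in hippocampus than in cerebellum is thus not shown to be a regional difference for any single gene. For hippocampus minus cerebellum edgeR called 1 to 3 members with another scaling or filter, and 4 without 5xFAD cerebellum mouse 1.

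Amyloid models hold microglia in different states, so members were also compared between cells of the same mouse. A panel of 6 genes known from disease-associated microglia, none of them a member (Cst7, Lpl, Clec7a, Itgax, Axl, Ch25h), divided the cells. A cell with at least 3 of them at 10 CPM or more was panel-positive, and one with 0 or 1 panel-negative. Panel-positive cells were 27.3% of kept cells in 5xFAD cortex, 52.6% in 5xFAD hippocampus and 17.6% in 5xFAD cerebellum, and 0.599%, 1.1% and 4.94% in the WT regions in the same order. Median reads per cell were 356501 in panel-positive and 295029 in panel-negative cells of 5xFAD hippocampus, 271140 and 260139 in cortex, and 351302 and 334853 in cerebellum.

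Between the classes, with each mouse as its own control, Dpp7 rose in panel-positive cells of cortex, and 0 members passed in hippocampus or cerebellum, where 0.155%, 0.103% and 0.00739% of 13538 genes rose. Dpp7 stood at 94.1, 25.2, 86.6 and 127 CPM in panel-negative and 639.6, 319, 482 and 334 CPM in panel-positive cells of the 4 5xFAD cortex mice. It was higher in 4 of 4 mice, by 2.57 ± 0.45 (adjusted p = 0.0331), and it no longer passed without cortex mouse 1, 2 or 3, or where cells with at least 2 panel genes were positive and cells with 0 negative (adjusted p = 0.27). In hippocampus, 236, 234 and 449 CPM in panel-negative and 573, 274 and 298 CPM in panel-positive cells showed no such order. At an unadjusted p under 0.05 there were 12, 14 and 3 members in cortex, hippocampus and cerebellum, and DESeq2 called 3, 3 and 2. Shares of all genes under these rules are not given, so whether the members exceed them is open.

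Cd68 came close in hippocampus, where panel-negative cells had 837, 1395 and 965 CPM and panel-positive cells 2685, 2519 and 2969.6 CPM. It was higher in 3 of 3 mice, by 1.39 ± 0.26 (adjusted p = 0.0537), and in cortex in 4 of 4 mice, by 1.04 ± 0.22 (adjusted p = 0.119). Hexa had 2220.0, 2259.6 and 1890.3 CPM in panel-negative and 5073, 3562 and 5187 CPM in panel-positive cells of hippocampus (1.10 ± 0.23, adjusted p = 0.115), with a difference of 1.05 ± 0.20 in cortex (adjusted p = 0.0557). Neither gene's classes overlapped in these regions, and neither gene passed. The share of all genes with such separation between classes is not given.

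Lgmn had the opposite sign in all 3 regions. Panel-negative cells had 7398, 7190.0, 8314 and 7189.6 CPM in cortex and panel-positive cells 4594, 6117, 5769 and 5235 CPM. In hippocampus the values were 6475, 7832 and 7604 CPM against 4725, 5479.9 and 6191 CPM, and in cerebellum 7436, 6648 and 7659 CPM against 6274, 3458 and 7070.0 CPM. Lgmn was lower in the panel-positive cells of 4 of 4 cortex, 3 of 3 hippocampus and 3 of 3 cerebellum mice. The regions came from the same mice, so these pairs are not independent, and the share of all genes with this order was not counted. The differences were -0.48 ± 0.13, -0.42 ± 0.15 and -0.43 ± 0.15 (adjusted p = 0.374, 0.729 and 0.639). Over 7 alternatives they ranged from -0.47 to -0.28 in cortex, -0.48 to -0.041 in hippocampus and -0.58 to -0.13 in cerebellum. Lgmn passed in 0 of 3 regions, where 0.0369%, 0.0517% and 0.00739% of all genes were lower.

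**Figure D5:**
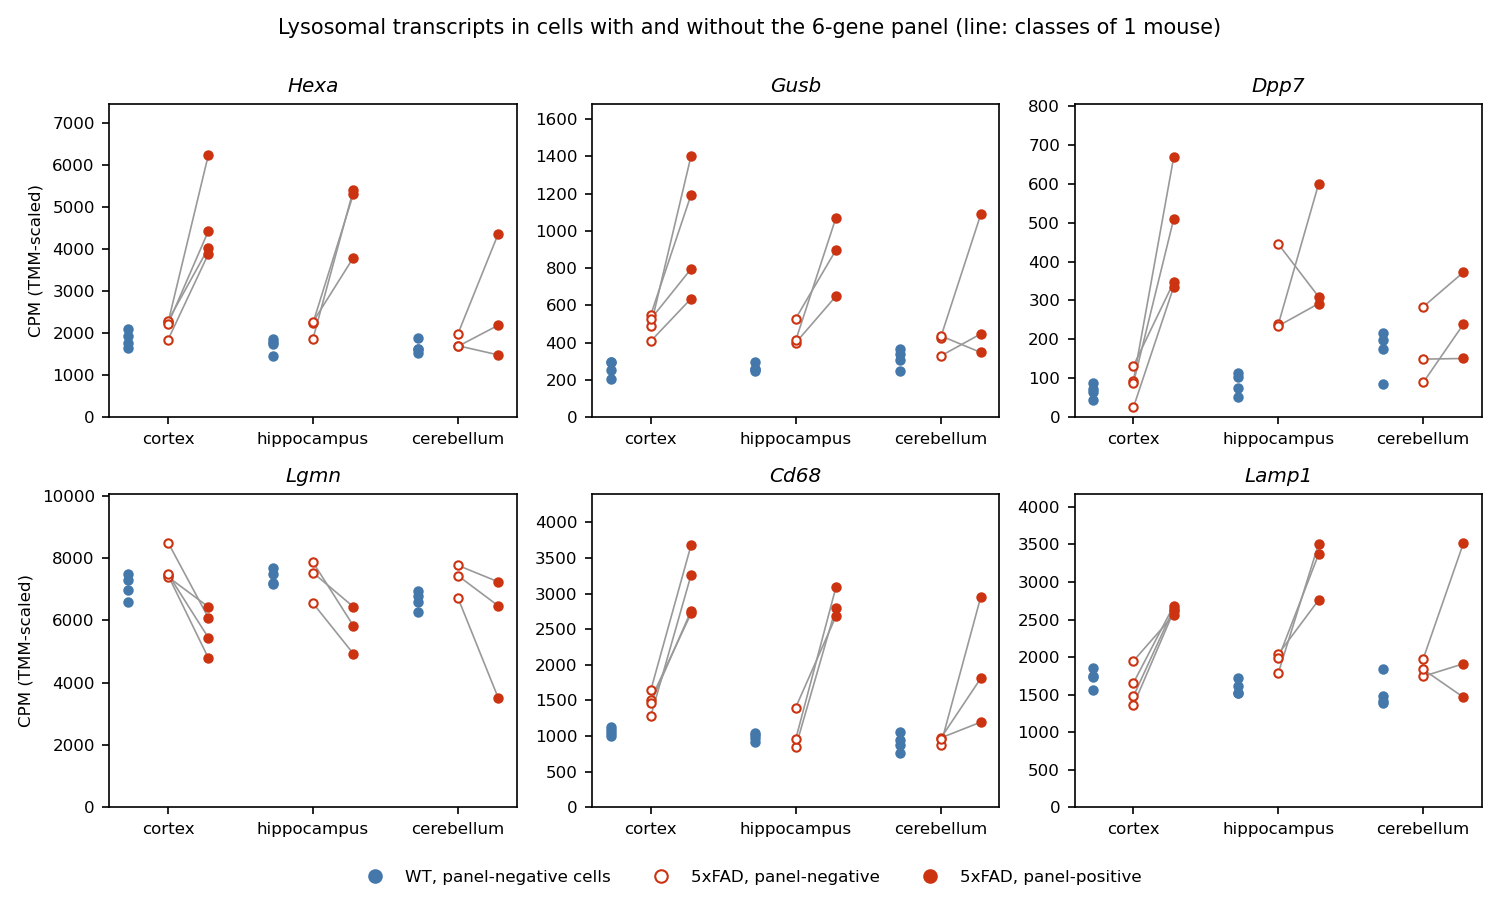
Levels of 6 members in CPM (vertical axes, linear, from 0) in panel-negative cells of WT mice (blue), panel-negative cells of 5xFAD mice (open red) and panel-positive cells of 5xFAD mice (filled red); each point is 1 mouse and region, and lines join the classes of 1 mouse. All classes are scaled together here, so that levels differ slightly from those of the test within 5xFAD mice. Points of Hexa, Cd68 and Lamp1 lie higher and those of Lgmn lower in panel-positive cells of cortex and hippocampus. None of these genes passed between the classes in either region.

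In panel-negative cells alone, 0 of 37 members passed between 5xFAD and WT in any region, where 0.0189%, 0.0568% and 0.00631% of 15859 genes rose and 0.0126%, 0.0757% and 0.0189% fell in cortex, hippocampus and cerebellum. At an unadjusted p under 0.05 there were 4, 6 and 6 members, and DESeq2 called 1, 4 and 1. For these counts, too, the shares of all genes under the same rules are not given. Gusb was nearest in cortex, with 208, 303, 262 and 309 CPM in WT and 498, 565, 548 and 423 CPM in 5xFAD cells. These mice did not overlap, and the difference was 0.91 ± 0.18 (adjusted p = 0.0995). In hippocampus Gusb differed by 0.72 ± 0.19 (adjusted p = 0.178), Hexa by 0.27 ± 0.11 (adjusted p = 0.376) and Lgmn by -0.05 ± 0.07. The median member differed by 0.13, 0.07 and 0.17 in these cells.

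A list of 76 other lysosomal genes, cathepsins among them, was read in the same fits, and 71 were tested. Of these, 7 rose in cortex, 13 in hippocampus and 0 passed in cerebellum, and none fell, with medians of 0.29, 0.38 and 0.14. Of all genes 0.242%, 0.76% and 0.0288% rose in these regions. Among genes with a mean log2 CPM of 5 or more, 0.75%, 2.31% and 0.0643% did. The smallest p in both cortex and hippocampus belonged to the cathepsin proteases Ctsb, Ctsz and Ctsd. Ctsb rose by 0.90 ± 0.10 and 1.69 ± 0.10, and Ctsd by 0.93 ± 0.13 and 1.54 ± 0.14. In cerebellum they were Psap, the precursor of saposins (0.59 ± 0.13, adjusted p = 0.123), Ctsb (0.48 ± 0.10, adjusted p = 0.13) and Idua, which degrades glycosaminoglycans (1.20 ± 0.28, adjusted p = 0.179).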

How the data were processed

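Single microglia were sequenced with Smart-seq2 from 3 brain regions of WT and 5xFAD mice. The authors deposited 1 table of read counts per gene and well; per the submitters' processing notes STAR 2.5.2b, featureCounts 1.5.1 and GRCm38 were used, while annotation and strand setting were not stated there. Counts in 96 well columns (plate columns 1 and 2) also held the counts of wells 10 to 19 or 20 to 24 of the same plate row and were restored by subtraction, which gave 0 negative values of 4673184. Of 1140 wells with a cell, 1041 were kept (at least 500 genes and 10000 reads, at most 20% mitochondrial reads), and 99 were left out; 12 blank wells held 82 member reads of 56684. Sums of 35 to 72 cells per mouse and region were fitted with edgeR 4.0.16 in R 4.3.3 (TMM scaling, default filter on low counts, quasi-likelihood test, Benjamini-Hochberg adjustment over all genes tested, threshold 0.05); 22 sums shared 1 fit. The replicate number was taken as the mouse; per the series' design text the regions came from the same mice, but whether 1 number marks the same mouse in different regions is not given in the sources used here. The panel comparison kept the mouse and region as a block and left out cells with 2 panel genes. Levels per kb used the exon union of GENCODE M21. The test was tested on simulated data. Alternatives were another scaling, filters, DESeq2 1.42.0, the block, fewer samples, thinned cells and the columns as deposited. Reads without molecular identifiers are not independent molecules. Values per mouse are given for the members that passed in a genotype comparison and for Tfeb and Mcoln1, and of the other lysosomal genes the 3 of smallest p per genotype comparison are named; Lgmn and members near the threshold were added after their values were seen. The members and gene lists were chosen with earlier results of these data known.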

Additional observations from a re-analysis of the deposited data

Results flagged for a closer look

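Tfeb in WT cortex mouse 1 stood at 5.34 CPM, far from the 34.3, 39.5 and 36.7 CPM of the other 3 WT cortex mice. It was the 1 sample set apart in 52 tests of the highest or lowest mouse in groups of 4, and chance sets apart about 1 in 20 such groups.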

How the results depend on the processing

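The 9 members that rose in hippocampus became 7 to 13 under the alternatives and 7 to 11 with 1 sum left out. The 5 of cortex became 3 with relative log expression size factors, library size alone, the columns as deposited or without plate columns 1 and 2, and 2 with only the groups compared; leaving out 1 sum gave 2 to 5, with 3 without 5xFAD cortex mouse 1 or 2 or WT cortex mouse 4 and 2 without 5xFAD cortex mouse 3 or WT cortex mouse 2 or 3. Gusb and Cd68 passed in both regions under all 12 alternatives and all 22 leave-outs. Cerebellum went from 0 to 2 with no filter and 1 with DESeq2, and to 0 in every leave-out.

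Over all genes DESeq2 called 550, 858 and 391 in cortex, hippocampus and cerebellum where edgeR called 51, 176 and 8; with no filter edgeR called 190, 327 and 98, and with only the groups compared 25, 128 and 0. Columns as deposited gave 0 in cerebellum. For the comparisons that follow, counts over all genes under the alternatives are not given, so the member counts have no background there.

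In WT cerebellum against cortex the count of 0 became 2 with no filter or DESeq2 and 1 with the stricter filter or the columns as deposited (0 to 1 with 1 sum left out). In WT hippocampus against cerebellum it became 2 with DESeq2 and 1 with the stricter filter or stricter cell filter (0 to 1), and in WT hippocampus against cortex it was 0 to 0. In 5xFAD hippocampus against cortex DESeq2 gave 1 (0 to 0). In 5xFAD cerebellum against cortex the count of 1 became 2 with DESeq2 and 0 with either other scaling, the replicate block, only the groups compared, the columns as deposited, without plate columns 1 and 2 or without wells of other types (0 to 1). In 5xFAD hippocampus against cerebellum the count of 2 became 1 with library size alone, 5 with DESeq2 and 0 with only the groups compared or the columns as deposited (0 to 3). The interaction count of 0 became 1 with DESeq2 for hippocampus minus cortex (0 to 0) and for cortex minus cerebellum (0 to 0). For hippocampus minus cerebellum it became 1 with either other scaling or the stricter cell filter, 2 with no filter, 3 with the stricter filter and 6 with DESeq2, and 0 to 4 with 1 sum left out, the highest without 5xFAD cerebellum mouse 1.

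Between panel classes the count of 1 in cortex became 0 with the wider panel rule, 2 with no replicate block, 3 with DESeq2 or the other size factors and 6 with no filter (0 to 4). In hippocampus 0 became 1 with no replicate block, 2 with the wider panel rule or thinned cells, 3 with DESeq2 and 4 with no filter (0 to 2), and in cerebellum 2 with DESeq2 or no filter (0 to 1). Without wells of other types, chosen after seeing the data, the counts were 2 in cortex and 1 in hippocampus. In panel-negative cells DESeq2 gave 1, 4 and 1, and the wider panel rule or no filter gave 1 in hippocampus; leave-outs gave 0 to 0, 0 to 1 and 0 to 0.

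Hydrolases minus pump moved from 0.54 to 0.14 in cortex and from 0.49 to 0.15 in cerebellum with summed reads, and reversed from 0.69 to -0.11 in hippocampus; without Gla it was 0.47 in cortex, 0.37 in hippocampus and 0.22 in cerebellum, and summed reads without Lgmn gave 0.36 in cortex and 0.33 in hippocampus. Leaving out 1 sum gave 0.48 to 0.60, 0.64 to 0.79 and 0.37 to 0.64.

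Some small values changed sign. Lgmn in cortex was -0.014 with library size alone, and Tfeb in cortex 0.12 and Mcoln1 in cerebellum 0.020 with thinned cells. Lamp2 in cerebellum was -0.011 with the other size factors, -0.0087 with DESeq2, -0.0053 with thinned cells, -0.016 with the stricter filter, -0.017 with the columns as deposited, -0.034 with library size alone and -0.032 with the replicate block. In panel-negative hippocampus Lgmn was 0.075 with the other size factors and 0.074 with DESeq2, and Cd68 -0.060 with thinned cells. With 1 sum left out, Mcoln1 in cortex ranged from -0.061 to 0.28, Tfeb in hippocampus from -0.68 to 0.079 and in cerebellum from -0.80 to 0.31, and Dpp7 in cerebellum from -0.21 to 0.44. Lamp2 in cerebellum ranged from -0.038 to 0.095 and Atp6v1b2 there from -0.27 to 0.0090. Between panel classes Dpp7 in hippocampus ranged from -0.14 to 0.78 and Lamp1 in cerebellum from -0.11 to 0.47. In panel-negative hippocampus Lgmn ranged from -0.10 to 0.042 and Cd68 from -0.17 to 0.23. The cause of these changes was not tested.

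Same-numbered sums of different regions, compared over 4668 genes, had correlations of -0.040 to 0.049 in 21 pairs, so the numbers share no visible deviation; with the replicate block 4 members passed in cortex, 7 in hippocampus and 0 in cerebellum. The 3 or 4 mice per group, the plates that follow genotype and the absence of molecular identifiers limit precision.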
